A study of Rattus norvegicus with 24 samples.

Results

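Translation initiation and elongation factors were examined in rat hippocampus, taken as every array probe whose annotated gene symbol starts with Eif or Eef followed by a digit. Of 22226 probes on the array, 52 met this rule, for 51 of the 12978 genes named on it, with 2 probes for Eif4g2. The samples were whole hippocampi of 24 rats, 1 array per animal, in 6 groups of 4. Growth hormone (GH)-deficient dwarf rats, homozygous for the dw allele (dw/dw, strain HsdOla:DWARF-dw-4), were injected under the skin with saline (dw/dw saline) or with 300 µg GH (dw/dw GH) from postnatal day 35, for 7 or 30 days. Controls were heterozygous rats of the same strain (HZ) given saline, so the controls carry the dw allele as well. The rats were 42 days old after 7 days of treatment and 65 days old after 30 days.

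Translation starts when eIF4F, made of the cap-binding protein eIF4E, a scaffold eIF4G and the RNA helicase eIF4A, attaches to the capped end of an mRNA and draws in the small ribosomal subunit with eIF3 and the initiator tRNA, which eIF2 carries. The 4E-binding proteins block eIF4E until mTOR, a kinase downstream of insulin and IGF receptors, phosphorylates them. Stress kinases phosphorylate the alpha subunit of eIF2 and thereby block its exchange factor eIF2B. During elongation eEF1A brings aminoacyl-tRNAs to the ribosome and eEF2 moves the ribosome along, and the kinase eEF2K inhibits eEF2. In hippocampal neurons control of these steps is known to bear on lasting synaptic change and on memory. GH acts largely through IGF-1, and much of the control described here runs through phosphorylation, which mRNA arrays do not measure.

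Values are normalized log2 signals, so a difference of 1 is a doubling, and means are given with the SD over 4 rats. Tests were limited to probes detected (p-value under 0.05) on 4 or more arrays, which left 11487 probes in all and 46 of the 52 translation factor probes, for 46 genes. Of the 52, 43 were detected on all 24 arrays. Eef2kmt, Eif1ax, Eif2a, Eif3b and the second Eif4g2 probe were detected on 0 arrays and Eif4enif1 on 3, and these were not tested. Eif3k and Eif5a2 were detected on 18 arrays each and Eif2ak4 on 10, all close to background, where differences are compressed. Between 44.9% and 51.2% of all probes were detected on an array. All 6 neuronal markers and all 5 markers of hippocampal principal cells with a probe (among them Prox1, Neurod1 and Neurod6) were detected on 24 arrays. Of these, Prox1 (mean 6.17) and the neuronal marker Rbfox3 (mean 6.20) lay close to background. The 7-day arrays lay on one slide and the 30-day arrays on another, so age, duration and slide cannot be told apart. On either slide a group filled 1 block of 4 neighbouring positions, the same on both, so group and position cannot be told apart either. Within a block the positions follow the replicate number. A linear term for slide position, used below, takes its slope from within the blocks and extends it across them. Values with that term show how far a difference depends on it and are not differences corrected for position.

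Promoter sequences are shown for Eif2s1 and Eif3m, the genes with the smallest p for the mean difference between dw/dw saline and HZ rats, and were chosen after these values were seen. They run from 250 bases before to 50 bases after the gene start, from RefSeq on assembly GRCr8. Capitals mark CTTCCGG on either strand, a sequence bound by ETS factors, and a run of pyrimidines at the start.
Eif2s1 (chr6:103405630-103405929, plus strand): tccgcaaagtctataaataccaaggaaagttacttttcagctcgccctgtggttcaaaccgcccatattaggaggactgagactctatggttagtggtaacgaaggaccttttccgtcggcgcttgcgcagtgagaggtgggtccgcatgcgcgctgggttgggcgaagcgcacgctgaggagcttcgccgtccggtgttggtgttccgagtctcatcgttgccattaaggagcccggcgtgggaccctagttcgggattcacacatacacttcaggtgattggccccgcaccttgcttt
Eif3m (chr3:111897144-111897443, minus strand): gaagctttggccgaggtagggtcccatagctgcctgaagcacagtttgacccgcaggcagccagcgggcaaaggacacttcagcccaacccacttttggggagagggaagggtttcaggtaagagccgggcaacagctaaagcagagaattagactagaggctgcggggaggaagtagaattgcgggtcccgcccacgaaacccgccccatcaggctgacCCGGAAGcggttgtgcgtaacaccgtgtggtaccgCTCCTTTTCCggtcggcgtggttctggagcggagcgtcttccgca
The Eif2s1 promoter held no match to these, nor one to CACGTG, the E-box of Myc-related factors, or to TGATGNAA, an element of ATF4.

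Many mRNAs of the translation apparatus in human and mouse cells begin with a run of pyrimidines, the terminal oligopyrimidine motif, through which mTOR signalling controls their translation. For this reason the windows from 20 bases before to 30 bases after the start are shown for the elongation factors Eef1a1, Eef1a2, Eef2 and Eef1b2 and for Eif2s3, with capitals for a C followed by at least 5 more pyrimidines on the sense strand that begins within 10 bases of the annotated start.
Eef1a1 (chr8:88225040-88225089, minus strand): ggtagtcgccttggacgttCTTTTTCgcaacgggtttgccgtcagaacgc
Eef1a2 (chr3:188652604-188652653, minus strand): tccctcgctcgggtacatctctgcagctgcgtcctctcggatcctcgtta
Eef2 (chr7:9189209-9189258, minus strand): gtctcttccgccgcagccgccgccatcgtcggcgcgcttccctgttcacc
Eef1b2 (chr9:72074071-72074120, plus strand): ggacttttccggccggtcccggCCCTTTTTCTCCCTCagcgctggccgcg
Eif2s3 (chrX:62933670-62933719, minus strand): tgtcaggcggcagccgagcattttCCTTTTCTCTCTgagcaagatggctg
Eef1a1, Eef1b2 and Eif2s3 held such a run and Eef1a2 and Eef2 did not. The windows of Eef1a2 and Eef2 do hold runs of that length, but these begin more than 10 bases from the annotated start. Whether a gene counts as holding the run thus depends on where its start is annotated. Of 46 genes with a matched promoter 10 (21.7%) held one, against 17.8% of all 33469 promoters in the table. The unmatched genes were Eef1d, Eif3h, Eif4b, Eif4e3 and Eif4ebp1. CTTCCGG, searched on both strands, was in 16 of the 46 (34.8%) against 8.75% of all promoters, CACGTG in 9 (19.6%) against 6.42%, and TGATGNAA, on both strands, in 1 (2.17%) against 3.98%. Among the 21851 promoters of protein-coding genes the shares were 10.7%, 7.02% and 3.35%, and 17.5% for the pyrimidine run. Matches to CTTCCGG and to the pyrimidine run can share bases, and a match is a description of letters only.

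None of the 46 tested genes passed the adjusted threshold (limma, Benjamini-Hochberg over 11487 probes, 0.05) in any of the 6 comparisons among the 3 groups of a time point, and neither did any other probe (percent called 0). At an unadjusted p under 0.05, dw/dw saline and HZ differed in 2 of the 46 genes at 7 days, against 6.6% of all probes, and in 7 of 46 at 30 days, against 7.14%. Of these 7, 3 were higher and 4 lower in dw/dw rats, against 3.53% and 3.61% of all probes. GH and saline differed among dw/dw rats in 1 gene at 7 days, against 4.65% of all probes, and in 0 at 30 days, against 3.36%. Between dw/dw GH and HZ rats the counts were 1 at 7 days, against 4.06%, and 4 at 30 days, against 5.48%. The difference between the 30-day and the 7-day effect had an unadjusted p under 0.05 in 1 of the 46 genes for genotype, against 4% of all probes, and in 1 for GH, against 5.15%, Eef1akmt1 in both cases. The median differences of the 46 genes lay between -0.012 and 0.023 over the 6 comparisons, where those of all tested probes lay between -0.00051 and 0.0021.

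Within the eIF2 complex the alpha subunit gene Eif2s1, whose protein is the target of the stress kinases, had the lowest p of any of these genes in the 6 comparisons within a time point. At 30 days its signals were 6.91, 6.75, 6.95 and 6.81 in HZ rats, 6.76, 6.51, 6.47 and 6.62 in dw/dw rats on saline and 6.68, 6.51, 6.58 and 6.53 in dw/dw rats on GH. All 4 dw/dw GH rats lay below all 4 HZ rats, and 1 dw/dw saline rat lay just above the lowest HZ rat. Saline-treated dw/dw rats differed from HZ rats by -0.27 (SE 0.071, adjusted p = 0.49) and GH-treated ones by -0.28 (SE 0.071, adjusted p = 0.67). These comparisons share the HZ arrays. At 7 days the signals were 6.44, 6.48, 6.60 and 6.77 in HZ rats, 6.55, 6.54, 6.47 and 6.48 in dw/dw rats on saline and 6.38, 6.54, 6.52 and 6.62 in dw/dw rats on GH, and all 3 groups overlapped. The dw/dw saline minus HZ difference at 7 days was -0.061, and with a linear term for slide position the 30-day difference was -0.18. In the authors' processed values the 30-day differences were -0.53 for saline-treated and -0.55 for GH-treated dw/dw rats.

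The beta and gamma subunit genes of the same complex showed smaller differences. Eif2s2 averaged 10.39 ± 0.07 in HZ and 10.34 ± 0.12 in dw/dw saline rats at 30 days (SD, n = 4), and Eif2s3, which carries the pyrimidine run, averaged 6.22 ± 0.02 and 6.19 ± 0.01. Over both time points their dw/dw saline minus HZ differences were -0.030 (SE 0.049) and -0.0071 (SE 0.014). Eif2s3 lay between 6.17 and 6.27 on all 24 arrays, close to background, where differences are compressed. The size of its difference therefore cannot be set against that of Eif2s1.

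The exchange factor eIF2B has 5 subunit genes, and for all 5 the mean difference between dw/dw saline and HZ rats over both time points was positive, between 0.043 and 0.13, where 54.0% of all probes had a positive difference. None passed the adjusted threshold, and at 7 days the difference of Eif2b5 was -0.021. Eif2b2 encodes a regulatory subunit, and at 30 days it measured 8.81, 8.89, 8.90 and 9.01 in HZ rats, 9.06, 9.06, 9.17 and 9.09 in dw/dw rats on saline and 8.89, 8.96, 9.19 and 9.17 in dw/dw rats on GH. The dw/dw saline and HZ rats did not overlap (difference 0.19, SE 0.068, adjusted p = 0.63). The difference was 0.40 with a term for slide position and 0.12 with the share of probes detected as a covariate. In that comparison 2 of the 46 genes had groups that did not overlap, Eif2b2 and Eef1akmt1, against 4.34% of all probes. Eif2b1, the alpha subunit of eIF2B, measured 6.77, 6.91, 6.92 and 6.79 in HZ rats, 7.11, 7.07, 7.03 and 6.89 in dw/dw rats on saline and 6.92, 7.06, 6.56 and 6.66 in dw/dw rats on GH at 7 days. GH-treated rats differed from saline-treated dw/dw rats by -0.22 (SE 0.088, adjusted p = 1.0), and 2 of the 4 GH rats, at 6.56 and 6.66, lay below all other rats of that age. The same difference at 30 days was -0.074, with all 3 groups overlapping, and over both time points it was -0.15 (SE 0.062). Leaving out 1 array at a time moved the 7-day value between -0.31 and -0.14, the latter without GH replicate 3. With a term for slide position the 7-day value was -0.082 and the mean -0.0075, and in the authors' values they were -0.37 and -0.24.

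None of the 3 tested kinases that phosphorylate eIF2 alpha had an unadjusted p under 0.05 between groups of a time point. Eif2ak3, the endoplasmic reticulum stress kinase PERK, averaged 6.69 ± 0.07 in HZ rats, 6.71 ± 0.09 in dw/dw rats on saline and 6.68 ± 0.01 in dw/dw rats on GH at 30 days, and 6.68 ± 0.06, 6.72 ± 0.06 and 6.69 ± 0.02 at 7 days. Eif2ak4, the amino acid sensing kinase GCN2, lay between 6.07 and 6.14 on all 24 arrays. Eif2ak1, the haem-regulated kinase HRI, measured 7.10, 7.04, 7.10 and 7.32 in HZ rats, 7.34, 7.28, 7.25 and 7.16 in dw/dw rats on saline and 7.17, 7.19, 7.11 and 7.20 in dw/dw rats on GH at 7 days. Its dw/dw saline minus HZ difference was 0.11 at 7 days (SE 0.066) and 0.011 at 30 days.

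Of the 6 eIF3 subunit genes tested, Eif3m had the most negative dw/dw saline minus HZ difference at both ages, and it was also the most variable of all 46 genes, with a residual SD of 0.20 and a range of 1.07 over the 24 arrays. At 7 days it measured 7.11, 7.19, 7.37 and 7.85 in HZ rats, 7.07, 7.15, 6.90 and 6.93 in dw/dw rats on saline and 6.78, 7.20, 7.17 and 7.11 in dw/dw rats on GH. The HZ rat at 7.85 stood far above the rest, and the groups overlapped. The dw/dw saline minus HZ difference was -0.37 (SE 0.14, adjusted p = 0.66), and -0.21 without that HZ array (replicate 4). At 30 days the signals were 7.42, 7.41, 7.68 and 7.52 in HZ rats, 7.43, 7.05, 7.12 and 7.22 in dw/dw rats on saline and 7.48, 7.14, 7.16 and 7.02 in dw/dw rats on GH. In each dw/dw group 1 rat fell inside the HZ range and 3 lay below it. The 30-day differences from HZ were -0.30 (SE 0.14, adjusted p = 0.68) for dw/dw saline and -0.31 (SE 0.14, adjusted p = 0.89) for dw/dw GH. Averaged over both time points, dw/dw saline minus HZ was -0.33 (SE 0.097, adjusted p = 0.23), and -0.15 with a linear term for slide position, with which the 7- and 30-day values were -0.18 and -0.11. A small subunit of the eIF3 complex, Eif3k, lay near background. The core subunits Eif3a and Eif3c and the subunits Eif3d and Eif3h had mean dw/dw saline minus HZ differences between -0.0058 and 0.094. Eif3c averaged 10.32 ± 0.05 in dw/dw GH and 10.25 ± 0.04 in dw/dw saline rats at 7 days, the positive GH difference with the smallest p at that age (0.069, SE 0.044, and 0.016 with a term for slide position or 0.020 with the share of probes detected).

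**Figure D1:**
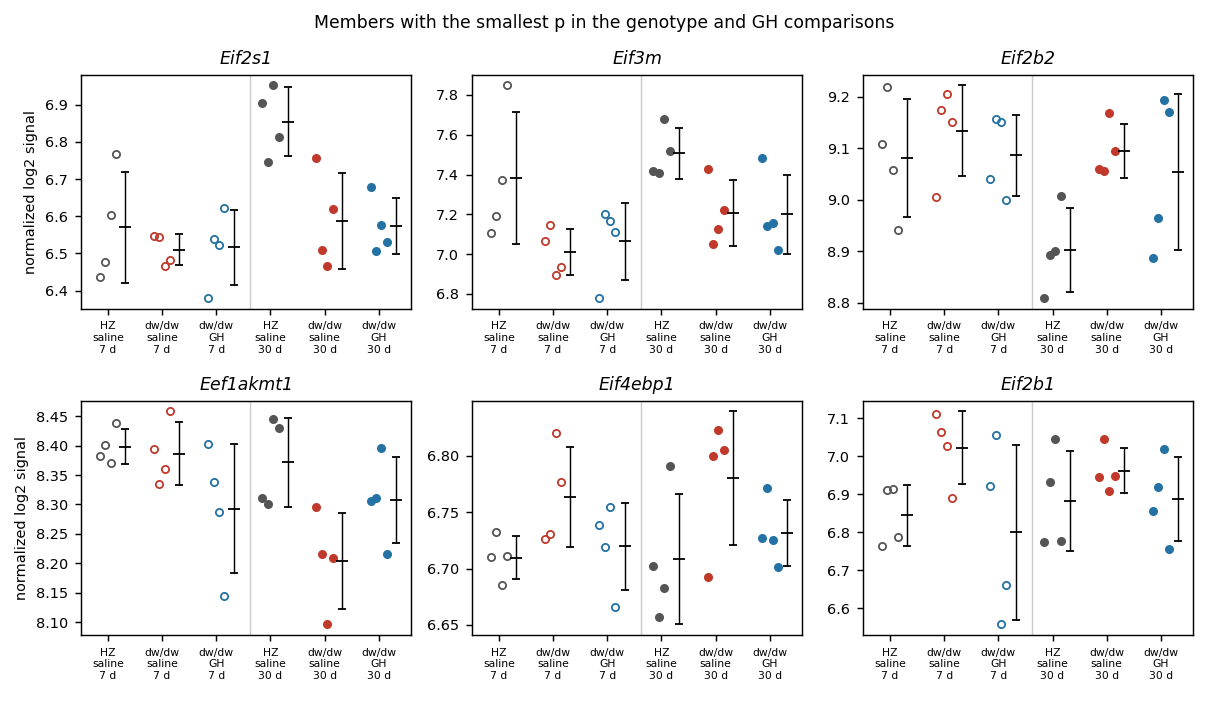
Normalized log2 signal of 6 translation factor genes in each rat (points), with mean and SD bars beside them, in 3 groups at 7 days (open points) and 30 days (filled points). Each panel has its own axis, which does not start at 0. At 30 days Eif2s1 lies between 6.75 and 6.95 in HZ rats and between 6.51 and 6.68 in dw/dw GH rats.

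Among the cap-binding and eIF4F genes the groups of a time point overlapped throughout. Eif4e, the cap-binding subunit, measured 9.49, 9.48, 9.66 and 9.58 in HZ rats, 9.75, 9.59, 9.58 and 9.60 in dw/dw rats on saline and 9.61, 9.54, 9.69 and 9.59 in dw/dw rats on GH at 7 days. At 30 days its means were 9.64 ± 0.09, 9.62 ± 0.08 and 9.65 ± 0.12. Over both time points the dw/dw saline minus HZ difference was 0.030 (SE 0.043) and the GH minus saline difference 0.0045 (SE 0.043). The helicase gene Eif4a1 measured 9.32, 9.21, 9.36 and 9.40 in HZ and 9.25, 9.02, 9.15 and 9.15 in dw/dw rats on GH at 30 days. A single GH rat reached the HZ range, and the difference was -0.18 (SE 0.077, adjusted p = 0.89), and -0.017 with a term for slide position. Eif4a2, the second helicase gene, was among the brightest probes. It averaged 11.81 ± 0.10 in HZ rats, 11.69 ± 0.10 in dw/dw rats on saline and 11.67 ± 0.06 in dw/dw rats on GH at 7 days, and 11.90 ± 0.15, 11.75 ± 0.12 and 11.78 ± 0.19 at 30 days. Its dw/dw saline minus HZ difference over both time points was -0.13 (SE 0.061, adjusted p = 0.47), and -0.34 with a term for slide position. The scaffold gene Eif4g3 had the positive dw/dw GH minus HZ difference with the smallest p at 7 days, from signals of 9.95, 9.95, 9.81 and 10.03 against 9.75, 9.74, 9.91 and 9.85 (0.12, SE 0.063, adjusted p = 1.0). It was 0.25 with a term for slide position and 0.24 under median scaling.

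Eif4ebp1, one of the proteins that hold eIF4E inactive, was dim and showed its highest means in dw/dw saline rats. At 7 days it measured 6.71, 6.73, 6.69 and 6.71 in HZ rats, 6.73, 6.73, 6.82 and 6.78 in dw/dw rats on saline and 6.74, 6.72, 6.75 and 6.67 in dw/dw rats on GH. At 30 days the signals were 6.70, 6.66, 6.68 and 6.79 in HZ rats, 6.69, 6.80, 6.82 and 6.81 in dw/dw rats on saline and 6.73, 6.77, 6.73 and 6.70 in dw/dw rats on GH. Above all HZ rats lay 2 of the 4 saline-treated dw/dw rats at 7 days and 3 of 4 at 30 days. Averaged over both time points the dw/dw saline minus HZ difference was 0.063 (SE 0.022, adjusted p = 0.32), and the GH minus saline difference was -0.046 (SE 0.022, adjusted p = 1.0). The 2 differences share the dw/dw saline arrays, so their opposite signs are not independent. With a term for slide position they were 0.14 and -0.083, and in the authors' values 0.11 and -0.082. Eif4ebp2, the 4E-binding protein that predominates in mouse brain, lay between 6.14 and 6.26 on all 24 arrays, close to background, where differences are compressed. Its mean differences were 0.017 (SE 0.017) and -0.015 (SE 0.017).

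Factors of scanning and subunit joining gave no unadjusted p under 0.05 between groups of a time point. Eif6, which keeps the large ribosomal subunit from joining too early, averaged 10.17 ± 0.13, 10.21 ± 0.10 and 10.19 ± 0.09 in HZ, dw/dw saline and dw/dw GH rats at 7 days, and 10.16 ± 0.06, 10.19 ± 0.07 and 10.19 ± 0.10 at 30 days. Eif1ad measured 7.02, 7.02, 6.96 and 7.03 in HZ and 6.91, 6.92, 6.94 and 6.95 in dw/dw rats on GH at 30 days, without overlap. Eif1ad and Eif2s1 were the 2 of 46 genes without overlap in that comparison, against 3.19% of all probes. In the other comparisons 0 of the 46 genes had groups apart. At 7 days this compares with 2.81% of all probes for dw/dw saline against HZ, 3.12% for GH against saline and 2.39% for dw/dw GH against HZ, and at 30 days with 2.32% for GH against saline. Eif5a, the hypusine-bearing factor that relieves stalled ribosomes, averaged 9.43 ± 0.05 in HZ rats, 9.55 ± 0.14 in dw/dw rats on saline and 9.45 ± 0.05 in dw/dw rats on GH at 30 days, and its dw/dw saline minus HZ difference over both time points was 0.11 (SE 0.053, adjusted p = 0.53).

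The elongation factors Eef1a1, Eef1a2 and Eef2 were among the brightest probes of the array. Eef1a1 measured 12.09, 12.05, 12.14 and 12.10 in HZ rats, 12.09, 12.12, 12.14 and 12.15 in dw/dw rats on saline and 12.10, 12.03, 12.06 and 12.12 in dw/dw rats on GH at 7 days. At 30 days the signals were 11.97, 12.02, 12.09 and 11.99 in HZ rats, 12.05, 12.06, 12.09 and 12.08 in dw/dw rats on saline and 12.12, 12.04, 12.04 and 12.04 in dw/dw rats on GH. All 24 values lay between 11.97 and 12.15, and the mean dw/dw saline minus HZ difference was 0.040 (SE 0.019, adjusted p = 0.50), 0.096 with a term for slide position and 0.014 in the authors' values. Eef1a2, the form that replaces it in mature neurons and muscle, averaged 12.30 ± 0.05, 12.37 ± 0.12 and 12.39 ± 0.06 in HZ, dw/dw saline and dw/dw GH rats at 7 days and 12.30 ± 0.14, 12.38 ± 0.10 and 12.35 ± 0.18 at 30 days. Eef2 averaged 11.83 ± 0.12, 11.87 ± 0.13 and 11.89 ± 0.05 at 7 days. At 30 days its signals were 11.59, 11.79, 11.70 and 11.80 in HZ rats, 11.76, 11.93, 11.95 and 11.82 in dw/dw rats on saline and 11.63, 11.85, 11.79 and 11.92 in dw/dw rats on GH. The 30-day dw/dw saline and HZ values overlapped in part, with a difference of 0.14 (SE 0.071, adjusted p = 0.69). Eef2k, the kinase that inhibits eEF2, measured 7.84, 7.68, 7.69 and 7.62 in HZ rats, 7.82, 7.92, 7.77 and 7.85 in dw/dw rats on saline and 7.87, 7.67, 7.85 and 7.78 in dw/dw rats on GH at 30 days. Saline-treated dw/dw rats differed from HZ rats by 0.13 (SE 0.064, adjusted p = 0.69), or by 0.073 with a term for slide position, with 1 HZ rat inside their range.

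Eef1b2, Eef1d and Eef1g encode the exchange factor that recharges eEF1A. Eef1d measured 10.23, 10.18, 10.10 and 10.14 in HZ and 10.17, 10.30, 10.39 and 10.32 in dw/dw saline rats at 7 days, with 3 of 4 dw/dw rats above all HZ rats (difference 0.13, SE 0.061, adjusted p = 0.73). That difference was 0.30 with a term for slide position and 0.22 under median scaling. Over both time points the dw/dw saline minus HZ differences of Eef1d, Eef1g and Eef1b2 were 0.12, 0.11 and 0.034.

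The genes of 2 lysine methyltransferases that modify eEF1A had negative dw/dw saline minus HZ differences at 30 days, neither past the adjusted threshold. Eef1akmt1 measured 8.31, 8.30, 8.44 and 8.43 in HZ rats, 8.30, 8.22, 8.10 and 8.21 in dw/dw rats on saline and 8.31, 8.31, 8.40 and 8.22 in dw/dw rats on GH. The HZ and dw/dw saline values did not overlap, although their ranges nearly touched (difference -0.17, SE 0.051, adjusted p = 0.60). The GH minus saline difference was 0.10 at 30 days and -0.093 at 7 days, and the interaction was 0.20 (SE 0.073, adjusted p = 0.92). Without dw/dw saline replicate 3 the 30-day value was 0.068, and under median scaling the interaction was 0.13. Eef1akmt2 measured 7.97, 7.57, 7.71 and 7.77 in HZ and 7.81, 7.49, 7.21 and 7.56 in dw/dw saline rats, overlapping groups with a difference of -0.24 (SE 0.11, adjusted p = 0.69). This value was -0.13 without dw/dw saline replicate 3, -0.12 with the share of probes detected as a covariate and -0.56 with a term for slide position.

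**Figure D2:**
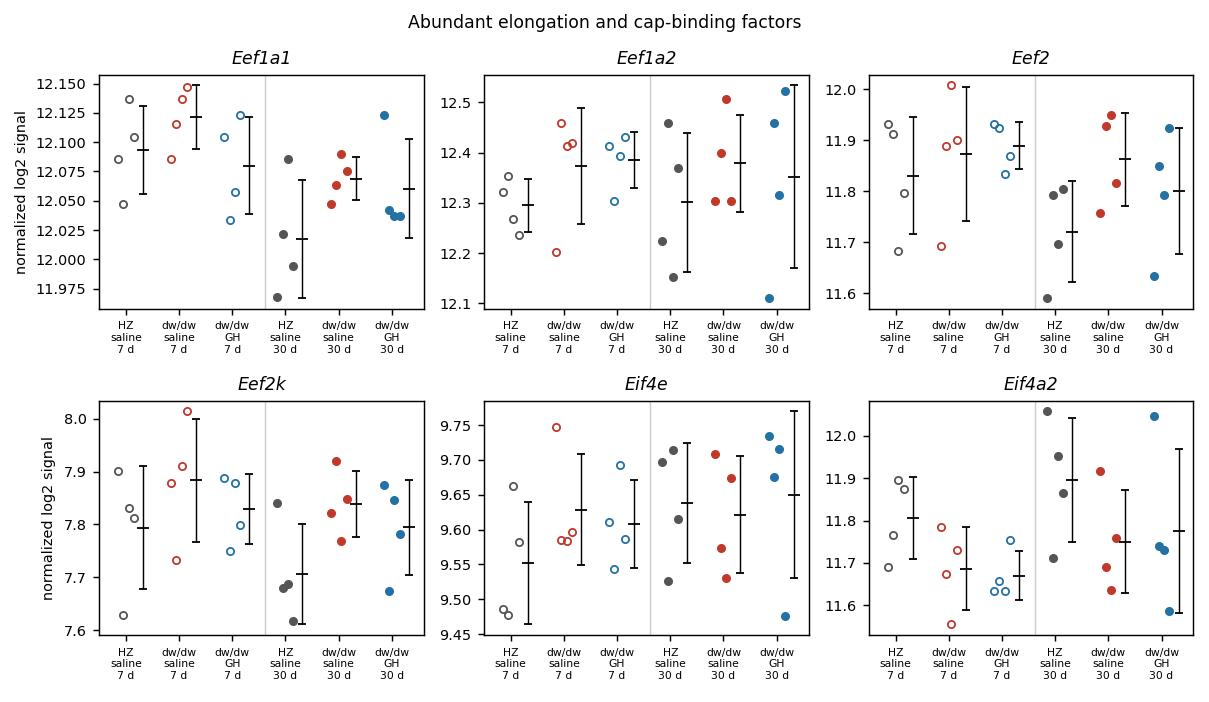
Normalized log2 signal of 6 elongation and cap-binding genes in each rat (points), with mean and SD bars beside them, in 3 groups at 7 days (open points) and 30 days (filled points). Axes differ between panels and do not start at 0. Eef1a1 stays between 11.97 and 12.15 on all arrays, and the groups overlap in every panel.

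The 95% intervals show which sizes of difference these data leave room for on the normalized scale. On that scale differences of dim probes are compressed, so the bounds say less about them. Eif2s1, for example, differed at 30 days by -0.27 on it and by -0.53 in the authors' values (dw/dw saline minus HZ). Eif2ak4, Eif3k, Eif5a2, Eif4ebp2 and Eif2s3, all close to background, are counted among the 46. For the GH minus saline difference averaged over both time points, 45 of the 46 intervals lay inside ± 0.26, a 1.2-fold change either way, a bound chosen after the data were seen. The other gene was Eif2b1, with a lower bound of -0.28. For dw/dw saline minus HZ, 43 of the 46 lay inside it, and the others were Eif2s1, Eif3m and Eef1akmt2. In the 6 comparisons within a time point between 33 and 44 of the 46 intervals lay inside. The interval of Eif3m reached down to -0.66 for dw/dw saline minus HZ at 7 days.

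**Figure D3:**
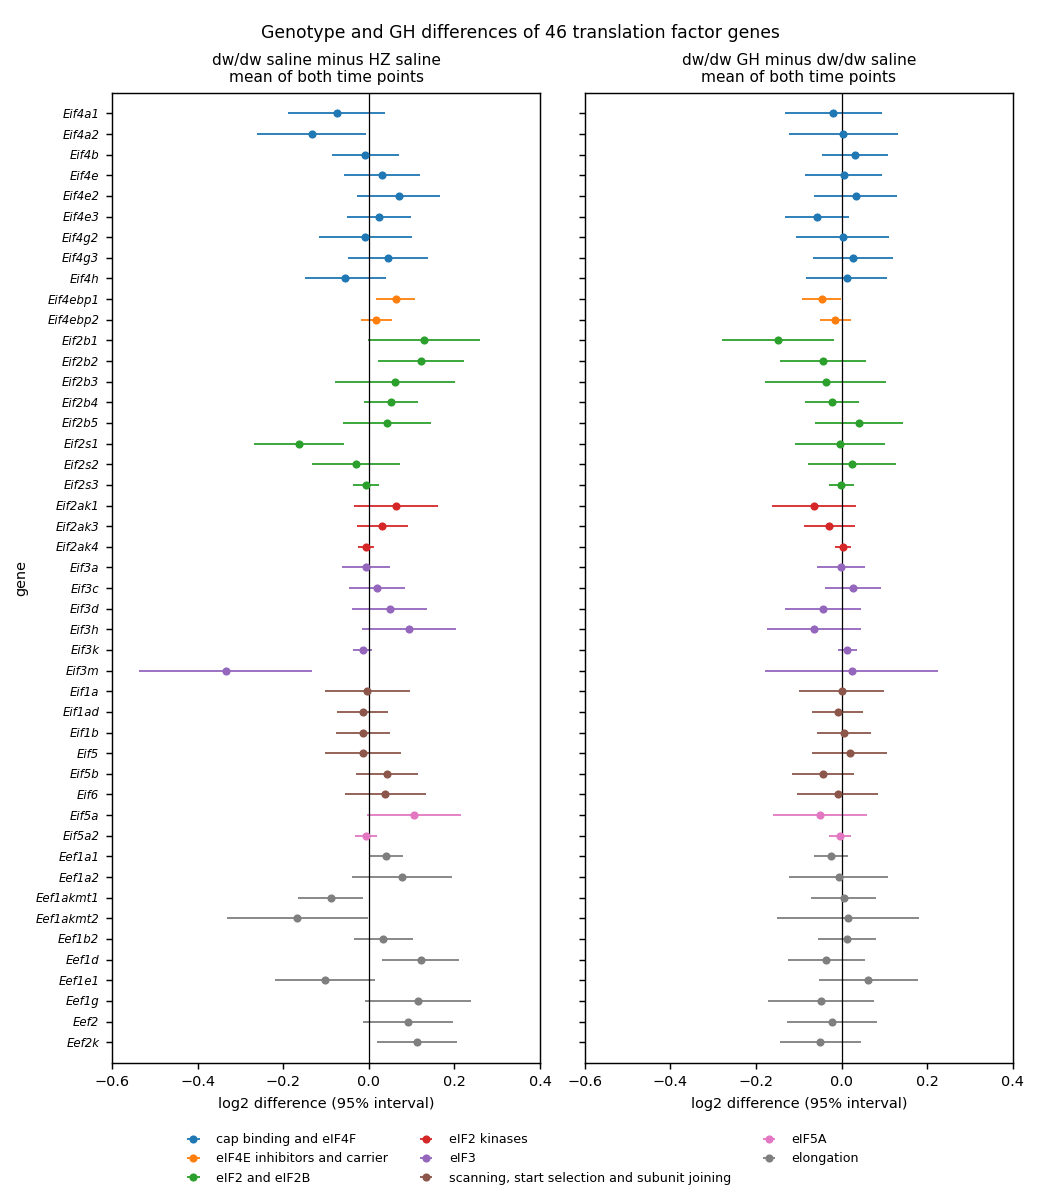
Log2 differences (points) with 95% intervals (bars) of 46 translation factor genes, averaged over 7 and 30 days, for dw/dw saline minus HZ (left) and dw/dw GH minus dw/dw saline (right), with colour for the role of the gene. Eif3m lies at -0.33 and Eif2s1 at -0.16 on the left, and on the right every interval but that of Eif2b1 stays within ± 0.26.

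The dw/dw saline minus HZ differences at 7 and at 30 days come from separate rats and slides. They had the same sign in 37 of the 46 genes (80.4%), against 55.8% of all tested probes. Among probes with a mean signal of at least 7 the shares were 29 of 36 genes and 60.8% of 4644 probes. Both signs were positive for 22 genes, among them Eef1d, Eef2k, Eif2b1 and Eif2b2, and negative for 15, among them Eif3m, Eif2s1 and Eif4a2. For GH minus saline 22 of the 46 (47.8%) kept their sign, against 45.3% of all probes. These shares are descriptions without a test, genes are not independent of each other, and the block of slide positions that each group held on both slides cannot be told apart from genotype. Averaging the 2 time points gave 10 genes with an unadjusted p under 0.05 for dw/dw saline minus HZ, 5 higher and 5 lower, against 9.78% of all probes (5.04% higher and 4.74% lower), and 2 for GH minus saline, against 2.92%. The lowest adjusted p among them was 0.23 for Eif3m. When the 4 dw/dw groups were set against the 2 HZ groups, a comparison added after the data were seen, Eif3m differed by -0.32 (adjusted p = 0.17) and Eif2s1 by -0.17 (adjusted p = 0.18). With a term for slide position these were -0.18 and -0.099, and that of Eif2s1 was -0.33 in the authors' values. In that comparison 10 genes had an unadjusted p under 0.05, against 9.59% of all probes.

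Genes with and without the pyrimidine run at their start are described here by their medians only. The 9 tested genes with the run had a median dw/dw saline minus HZ difference over both time points of -0.055, and the 32 without it 0.031. For GH minus saline the medians were 0.013 and -0.0084. Eif3m, Eef1akmt1 and Eef1akmt2 are among the 9.

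Genes around the translation factors were read from lists, and within a time point 0 of them passed the adjusted threshold. On the list of mTOR and its partners 13 of 18 genes were tested, with the smallest p for Tsc2, an inhibitor of mTOR signalling (0.16, SE 0.069, dw/dw saline minus HZ at 30 days, adjusted p = 0.67), and on the lower side for Mlst8, an mTOR complex subunit (-0.072, SE 0.032, GH minus saline at 7 days, adjusted p = 1.0). Of 12 genes of the integrated stress response 6 were tested, led by Asns, the asparagine synthetase (0.18, SE 0.10, GH minus saline at 7 days), and Ddit3, the transcription factor CHOP (-0.14, SE 0.077, dw/dw GH minus HZ at 7 days), both with an adjusted p of 1.0. Among 7 tested genes of poly(A) binding, termination and recycling, Etf1, the release factor, differed by 0.20 between dw/dw GH and HZ rats at 7 days (SE 0.061, adjusted p = 1.0), and Pabpc4, a poly(A)-binding protein, differed by -0.23 at 30 days (SE 0.066, adjusted p = 0.84). Of 4 tested mitochondrial translation factors Tufm, the mitochondrial elongation factor Tu, differed most, by 0.21 between GH and saline (SE 0.060, adjusted p = 0.91) and by -0.13 between dw/dw saline and HZ (SE 0.060, adjusted p = 0.73), both at 7 days. In the 6 comparisons the list medians lay between -0.062 and 0.052.

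Markers of other cell types were read for the same groups, and in the comparisons of genotype and GH 0 of those given here passed the adjusted threshold. The 5 markers of meninges and fibroblasts had a median dw/dw saline minus HZ difference of -0.27 at 7 days, with 3 of 5 at an unadjusted p under 0.05, against 6.6% of all probes. Their summed linear signal at 7 days ranged from 1166 to 2538 in HZ and from 1074 to 1348 in dw/dw saline rats. At 30 days it ranged from 897 to 1075 in HZ and from 892 to 1483 in dw/dw saline rats. The lower signal in dw/dw saline rats was thus not seen at 30 days. The 3 tested haemoglobin genes of 5 red blood cell markers had median GH minus saline differences of 0.65 at 7 days and 0.53 at 30 days, each gene at an unadjusted p under 0.05, against 4.65% and 3.36% of all probes, and Alas2 was detected on 0 arrays. The part of these markers in the differences of the translation factors was not tested. In whole tissue, fewer cells of a type and less RNA per cell cannot be told apart.

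Between the time points the translation factors differed more. Averaged over the 3 groups, 6 genes were higher and 3 lower at 30 than at 7 days, 9 of 46 past the adjusted threshold, against 15.7% of all probes (7.83% higher and 7.9% lower). Higher at 30 days were Eif2ak1, Eif4g2, Eif5, Eif4b, Eif2s1 and Eef1e1, and lower were Eif4e2, Eif2b4 and Eef1a1. With the authors' processed values, in which the median of all probes differed by -0.135 between the time points, the split over all probes was 256 higher and 4968 lower in place of 900 and 908, and 24 translation factors passed, 3 of them among the 9 (Eif4e2, Eif2b4 and Eef1a1, all lower). In HZ rats alone 3 of 46 passed, Eif2s1 and Eif5 higher and Eif4e2 lower, against 2.3% of all probes. Each time point lay on a slide of its own, so these are differences between 42-day-old rats on one slide and 65-day-old rats on another.

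Eif4e2, a homologue of eIF4E that binds the cap without the eIF4G scaffold and represses translation of the mRNAs it holds, gave the largest of these differences. Its signals at 7 days were 7.90, 7.67, 7.79 and 7.60 in HZ rats, 7.82, 7.85, 7.83 and 7.82 in dw/dw rats on saline and 7.72, 7.96, 7.78 and 7.86 in dw/dw rats on GH. At 30 days they were 7.31, 7.50, 7.31 and 7.57 in HZ rats, 7.53, 7.34, 7.55 and 7.47 in dw/dw rats on saline and 7.53, 7.51, 7.60 and 7.51 in dw/dw rats on GH. Within each group all 30-day rats lay below all 7-day rats. The mean difference was -0.32 (SE 0.038, adjusted p = 2.5e-05), or 0.80-fold, and it passed the threshold under every alternative tried and without any 1 array. In HZ rats alone it was -0.32 (SE 0.066, adjusted p = 0.023). That call was lost without HZ replicate 1 at 7 days (-0.27) or HZ replicate 1 or 3 at 30 days (-0.28 each), and under median scaling (-0.21).

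Eif2ak1, the haem-regulated eIF2 kinase, was higher at 30 days. Its 30-day signals were 7.27, 7.39, 7.50 and 7.40 in HZ rats, 7.42, 7.37, 7.35 and 7.47 in dw/dw rats on saline and 7.50, 7.46, 7.30 and 7.18 in dw/dw rats on GH, against 7.04 to 7.34 at 7 days (difference 0.20, SE 0.038, adjusted p = 0.0019, and 0.11 in the authors' values, short of the threshold). All 3 tested haemoglobin genes fell past the threshold, with a median difference of -1.28, against 15.7% of all probes called in either direction. So did 3 of 5 tested oligodendrocyte markers, with a median over the 5 of -0.19. The astrocyte marker Slc1a2 (-0.11, adjusted p = 0.032) and the microglia marker Aif1 (-0.12, adjusted p = 0.042) fell past it too. The other tested astrocyte and microglia markers did not pass, and not all of them fell. The microglia markers C1qa (0.135, adjusted p = 0.068), Cx3cr1 (0.0080) and Itgam (0.0043) had positive differences, opposite to Aif1. Of the astrocyte markers, Aqp4 (-0.068) and Gja1 (-0.074) had negative differences and Aldoc (0.012) a positive one. The part of these markers in the values of the translation factors was not tested.

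Eif4g2, a scaffold related to eIF4G that lacks the eIF4E binding site, lay between 8.12 and 8.38 at 30 days and between 7.83 and 8.21 at 7 days (difference 0.21, SE 0.042, adjusted p = 0.0027). Eif5, the activator of the eIF2 GTPase, measured 8.78, 8.63, 8.83 and 8.66 at 30 days and 8.45, 8.49, 8.53 and 8.47 at 7 days in HZ rats, without overlap. Its mean difference over the 3 groups was 0.15 (SE 0.034, adjusted p = 0.0057), and in HZ rats alone it was 0.24 (SE 0.060, adjusted p = 0.041), a call lost in 8 of the 24 fits without 1 array and in the authors' values (0.10). Eif4b, a cofactor of the eIF4A helicase, lay between 9.57 and 9.83 at 30 days and between 9.47 and 9.72 at 7 days (difference 0.11, SE 0.030, adjusted p = 0.015). Eef1e1, a part of the multi-synthetase complex despite its name, lay between 8.16 and 8.45 at 30 days and between 7.93 and 8.35 at 7 days (difference 0.14, SE 0.046, adjusted p = 0.040). In the authors' values the differences were 0.076 for Eif4g2, 0.020 for Eif5, -0.013 for Eif4b and 0.013 for Eef1e1, and none of the 4 passed.

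Eif2s1 differed by 0.14 over the 3 groups (SE 0.041, adjusted p = 0.026), which divides unevenly among them. In HZ rats the difference between time points was 0.28 (SE 0.071, adjusted p = 0.042), a call lost in 13 of the 24 fits without 1 array and in the authors' values (0.47), and in all 3 groups the values of the time points overlapped. The genotype by time interaction was -0.21 (SE 0.10, adjusted p = 0.995), so the groups were not shown to differ in it. Eif2b4, another subunit of eIF2B, was lower at 30 days, at 9.42 to 9.64 against 9.57 to 9.72 (difference -0.12, SE 0.025, adjusted p = 0.0024, and -0.24 in the authors' values). Eef1a1 differed by -0.049 (SE 0.015, adjusted p = 0.034), about 0.97-fold, by -0.12 under median scaling, where it did not pass, and by -0.23 in the authors' values, where it did. Leaving out 1 array lost this call for 12 of the 24 arrays, and that of Eef1e1 for 13. The next of the lower genes were short of the threshold. Eif2b5, a catalytic subunit of eIF2B, lay at 8.36 to 8.63 at 30 days against 8.34 to 8.81 (-0.10, SE 0.040, adjusted p = 0.093). Eef1akmt1 lay at 8.10 to 8.44 against 8.14 to 8.46 (-0.065, SE 0.030, adjusted p = 0.15), and Eif2b2 at 8.81 to 9.19 against 8.94 to 9.22 (-0.083, SE 0.039, adjusted p = 0.16). When arrays were scaled to a common median in place of quantile normalization, Eif4e2 alone of the 9 genes kept the call.

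On the pathway lists 8 genes passed the adjusted threshold between the time points, where 15.7% of all probes did. On the mTOR list 1 of 13 rose, the ribosomal protein gene Rps6 (0.14, SE 0.022, adjusted p = 0.00028), and 2 fell, Tsc2 (-0.17, SE 0.040, adjusted p = 0.0066) and Ddit4, a stress-induced inhibitor of mTOR (-0.28, SE 0.083, adjusted p = 0.027). Asns rose by 0.22 (SE 0.060, adjusted p = 0.017), the 1 of 6 tested stress response genes past the threshold. Pabpc4 and Mcts1, a partner of ribosome recycling, rose and Etf1 fell among the 7 of their list, and Tufm rose by 0.17 (SE 0.035, adjusted p = 0.0024) among the 4 mitochondrial factors. The list medians lay between -0.013 and 0.042, beside -0.0014 for all tested probes.

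**Figure D4:**
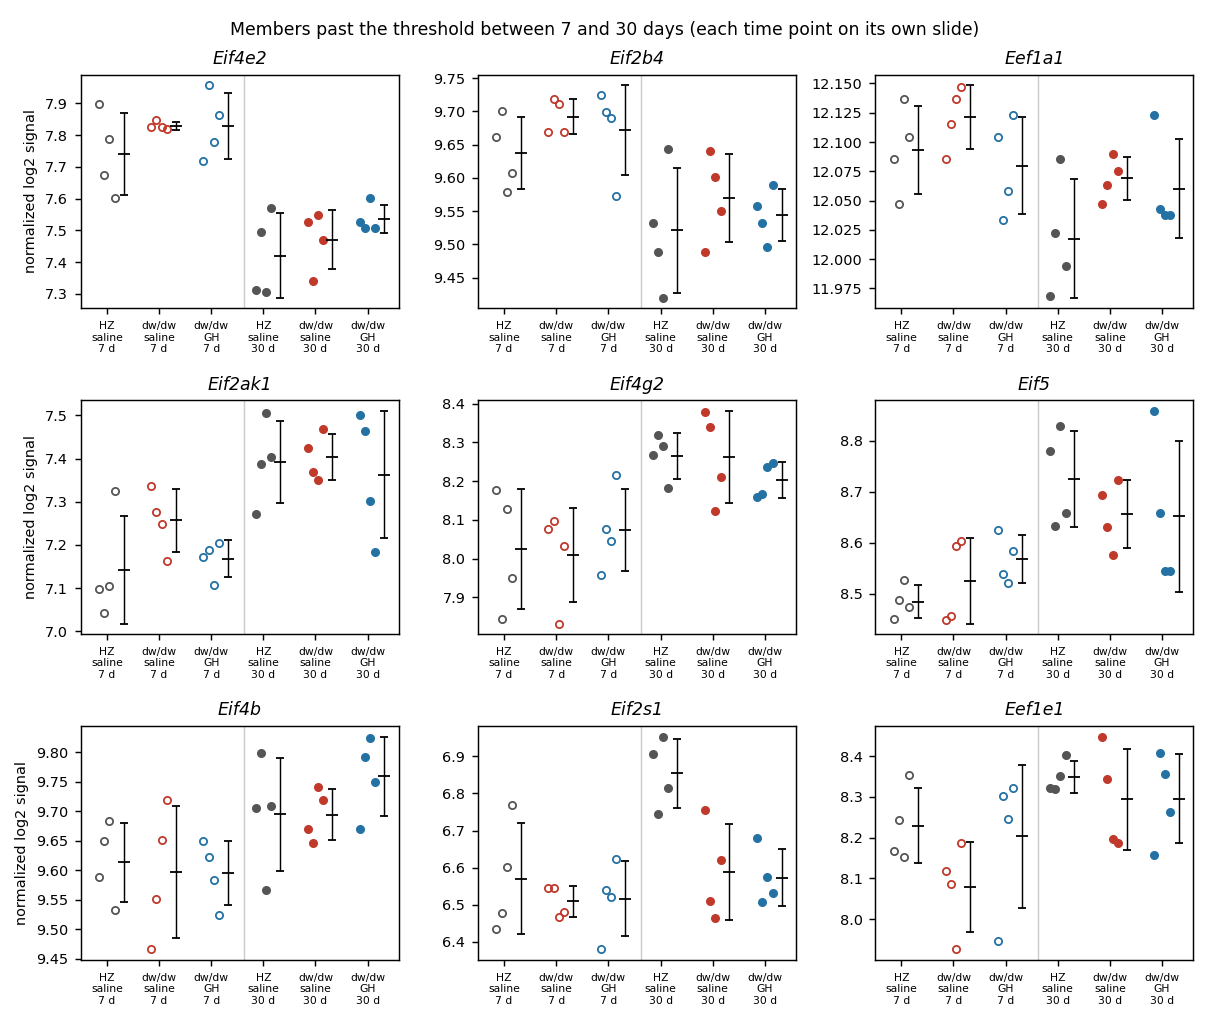
Normalized log2 signal of the 9 translation factor genes past the adjusted threshold between the time points, in each rat (points), with mean and SD bars beside them, in 3 groups at 7 days (open points) and 30 days (filled points, on the second slide). Each panel has its own axis, which does not start at 0. Eif4e2 lies between 7.31 and 7.60 at 30 days and between 7.60 and 7.96 at 7 days.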

How the data were processed

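The deposited scanner tables gave 1 intensity value per probe and array on a linear scale, not background-corrected or normalized as far as the file headers tell, with a detection p-value beside each. Per the submitters' processing notes the software was GenomeStudio 2010.2, for steps that they do not specify. The authors' processed values, also deposited as linear intensity, ran from -13.04 to 14652.65 on one slide and to 12626.47 on the other, with a normalization not given in the sources used here. They served as an alternative, with values under 1 set to 1 before log2.

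Intensities were background-corrected with normexp by detection p-value (offset 16), quantile normalized and put on a log2 scale with neqc in limma 3.58.1 (R 4.3.3). Gene symbols came from the platform annotation, which names 13192 of 22226 probes, and 51 of the 52 translation factor probes matched RefSeq by gene ID. Probes detected on 4 or more arrays (11487, 51.7%) entered 1 linear model of 6 group means over 24 arrays (lmFit and eBayes, 18 residual degrees of freedom), with two-sided tests and Benjamini-Hochberg adjustment over all tested probes. The residual SD is shared over the 6 groups. The procedure was tested on simulated data.

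Replicates are separate animals per the labels, and their number, 4 a group, limits the precision. Array medians lay between 46.0 and 56.7 before normalization, and no 2 arrays were identical (highest correlation 0.9984). Values in every rat are given for genes with an unadjusted p under 0.05 within a time point, for those with the smallest p in each direction, for a set list of core factors, and for the 6 leading genes in each direction between the time points, some of them by range. The members, lists and tests were chosen with earlier results of these data known. Alternatives covered background offset, normalization, detection filter, the authors' values, array weights, variance model, slide position, share of probes detected, replicate number, fits within 1 slide and each array left out.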

Additional observations from a re-analysis of the deposited data

Results flagged for a closer look

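In 144 groups of 4 rats, 6 groups for each of 24 genes described by name, 2 held a rat far from the other 3, by a gap to the nearest that exceeded Dixon's 95% critical share of the group's range. Chance alone marks about 1 in 20 such groups. Both were the same array, dw/dw GH replicate 1 at 30 days. Eef1a1 measured 12.1233 in that rat and 12.0374 to 12.0424 in the other 3. Eif4h, a cofactor of the eIF4A helicase, measured 11.5548 there and 11.3039 to 11.3323 in the others.

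Eif2ak4, the kinase GCN2, was the 1 gene of these 24 whose rats all lay on opposite sides of the comparison mean at the 2 ages, over 48 pairs of effects examined. Its dw/dw saline minus HZ difference was 0.0077 at 7 days, with all 4 dw/dw rats above the HZ mean, and -0.022 at 30 days, with all 4 below it. At 7 days the lowest dw/dw saline rat, at 6.08908, practically equalled the HZ mean of 6.089. The limma interaction had an unadjusted p of 0.107 and an adjusted p of 0.995, and the probe was detected on 10 of 24 arrays.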

How the results depend on the processing

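Of 2330 alternative values for 68 differences of named translation factors, 2239 kept direction and side of the threshold, 77 kept direction but lost the call, 13 gained one and 1 turned sign, Eif4b between the time points at -0.013 in the authors' values. No translation factor passed the threshold in a comparison of genotype or GH under any alternative. Between the time points, 9 passed in the main analysis, 1 under median scaling (Eif4e2), 24 with the authors' values (3 of them among the 9), and 7 to 10 without 1 array.

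Over all probes, the counts past the threshold moved as follows, and the cause was not tested. With the share of probes detected as a covariate, 1 probe passed for GH minus saline at each age, 2 for the GH by time interaction, 19 for the mean dw/dw saline minus HZ difference and 164 between the time points in HZ rats. With array weights the counts were 1 for dw/dw saline minus HZ at 30 days, 17 for its mean and 142 for HZ rats between the time points. Trend and robust variances gave 13 for the mean difference and 15 for the comparison of all dw/dw with all HZ rats that was added after the data were seen, and a filter on detection on all 24 arrays gave 13 and 12. With no filter 93 passed between the time points in HZ rats, where the main count was 264. With median scaling 9 passed there and 351 over the 3 groups, where the main count was 1808. The authors' values gave 1 for dw/dw saline minus HZ at 30 days, 1954 between the time points in HZ rats and 5224 over the 3 groups. The median of all probes was -0.131 and -0.135 in them, with 50 higher and 1904 lower in HZ rats and 256 and 4968 over the 3 groups, against 120 and 144 and 900 and 908 in the main analysis.

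Leaving out 1 array gave 0 to 1 probes in each 7-day comparison, 0 to 5 for dw/dw saline minus HZ at 30 days, 0 for the other 30-day comparisons and both interactions, 0 to 43 for the mean dw/dw saline minus HZ difference, 0 to 2 for the mean GH difference, 0 to 34 for all dw/dw against all HZ rats, 41 to 299 between the time points in HZ rats and 1561 to 1872 over the 3 groups. The counts of 5, 43 and 34 came without dw/dw saline replicate 1 at 30 days, and the 41 without HZ replicate 1 at 30 days.

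The replicate numbers were not taken to pair the rats, since the labels do not say that a number marks a shared litter, batch or day and the correlation of deviations between rats of the same number passed 0.1 in 12 of 24 pairs (-0.277 to 0.492). For replicate 1 at 30 days it was 0.422 to 0.492 in all 3 pairs, and 9 of 24 arrays correlated best with their own number. The replicate block left 0 calls for genotype and GH, with 277 between the time points in HZ rats and 1837 over the 3 groups, the same 9 translation factors among them. Signals near background, such as Eif2ak4, Eif3k and Eif5a2, limit what could be detected.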
